A study of Mus musculus with 2 samples.

Results

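The SOCS family comprises 8 genes, Cish and Socs1 to Socs7, which encode feedback inhibitors of cytokine signalling. They were taken as every probe set whose platform annotation names exactly 1 gene and that gene is a member, which gave 11 probe sets for the 8 genes among 23521 such probe sets for 22180 genes. No probe set named a member together with another gene. Probe sets were matched by name and not by measured values, but the members were chosen with earlier results of these data known. Expression was measured on 2 arrays of mouse CD8+ T cells, 1 of cells cultured with bezafibrate at 30 µM and 1 of control cells cultured with its solvent, dimethyl sulfoxide (DMSO). Bezafibrate belongs to the fibrates, lipid-lowering drugs that act as agonists of the nuclear receptors called PPARs. Cells of both cultures had been naive CD8+ T cells, were stimulated by beads carrying antibodies to CD3 and CD28, and grew in recombinant human interleukin-2 at 100 U/mL, with expansion to day 13. The labels used here name no strain, age, sex or number of mice. Each group is 1 array, so no value has a replicate error, no test is possible, and each difference compares 2 arrays and not 2 conditions.

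Interleukin-2 acts through the kinases JAK1 and JAK3, which phosphorylate the transcription factors STAT5A and STAT5B. STAT5 then induces Cish and several Socs genes, whose products bind the activated receptor or kinase through an SH2 domain. Their C-terminal SOCS box recruits elongins B and C and a cullin ubiquitin ligase, so the family both blocks signalling and marks its targets for degradation. In CD8+ T cells, CIS (the product of Cish) is known for restraining T cell receptor signalling, and SOCS1 for restraining responses to interferon-γ and to common γ chain cytokines.

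The values are log2 signals. A gene was above the floor where its signal on either array was over the median of all named genes on that array (4.85 with bezafibrate and 4.88 in control), as for 11448 genes. A level was within background where it lay under the 95th percentile of 1394 olfactory and vomeronasal receptor genes, taken as silent in T cells (4.68 with bezafibrate and 4.71 in control). Levels of different genes were compared only for the floor, the background limit and the genes nearest in level, since probe sets differ in brightness. The labelled cell type had its markers, with Cd8a at 10.68 with bezafibrate and 10.82 in control, and Cd3e at 11.05 with bezafibrate and 11.10 in control. All 6 measured markers of CD8 T cells were above the floor and lower with bezafibrate, with log2 ratios (bezafibrate minus control) from −0.30 for Cd3d to −0.06 for Cd3e and a median of −0.16, beside a median of −0.17 for the SOCS family. Of 25 measured markers of other cells (CD4 T cells, B cells, macrophages and monocytes, dendritic cells and natural killer cells), 15 were within background on both arrays and 8 were above the floor, 4 of them lower and 4 higher with bezafibrate. The lower ones were Fcer1g (−0.93), Cd79b (−0.55), Cd209a (−0.45) and Ighm (−0.33), each on its brightest probe set, and the other 6 probe sets of Ighm ran from −0.73 to 0.33 and the second of Cd209a was at −0.12. The higher ones were Zbtb7b (0.27), Foxp3 (0.07), Eomes (0.03) and Cd68 (0.01). With bezafibrate, Eomes read 10.59, Ighm 8.72, Cd209a 8.55 and Cd68 6.92, well over the background limit of 4.68. The rest of these 8 ran from 4.85 for Cd79b to 5.64 for Fcer1g. Which cells gave these 8 readings, Eomes among them, was not tested. The list medians that follow do not show these levels. The median log2 level was 4.65 with bezafibrate and 4.41 in control for the CD4 T cell list (4 genes), 4.15 with bezafibrate and 4.20 in control for the B cell list (6 genes), 3.50 with bezafibrate and 3.54 in control for the macrophage and monocyte list (6 genes), and 4.51 on both arrays for the dendritic cell list (5 genes). For the natural killer list it was 4.95 with bezafibrate and 5.42 in control, and of its 4 measured genes Fcer1g alone differed by more than 0.06. No marker above the floor had a ratio of 0, whereas Klrb1c, within background, read 4.26 on both arrays. Ncr1, also of the natural killer list, was within background too, at 3.22 with bezafibrate and 3.16 in control. The part of either kind of marker in the ratios of the SOCS family was not tested.

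The SOCS family was detected at day 13 and differed little between the arrays. Of the 8 members, 7 were above the floor, with Socs5 within background. On the brightest probe set of each gene, 5 of these 7 were lower with bezafibrate and 2 were higher, against 49.6% lower and 48.4% higher among all genes above the floor. The median log2 ratio (bezafibrate minus control) of the 7 was −0.17, against 0 for all genes above the floor, and the 7 ratios ran from −0.30 to 0.25. Socs1 and Socs3 were at least 1.2-fold lower and no member was at least 1.2-fold higher, against 10.4% and 9.58% of all genes above the floor. No member was at least 1.5-fold higher or lower, against 0.664% and 0.524% of all genes above the floor, 1.19% together. The robust SD of the log2 ratio was 0.21 over all genes above the floor and 0.30 over the olfactory and vomeronasal receptor genes. In such bulk samples, fewer cells that express a gene and less RNA of it per cell cannot be told apart.

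**Figure D1:**
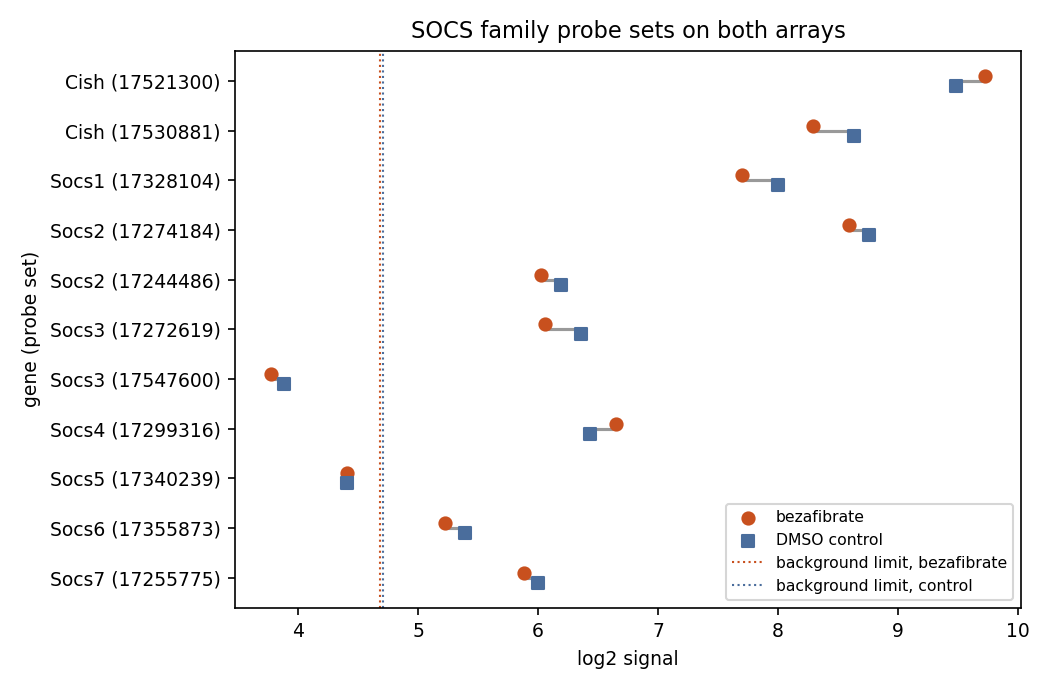
Log2 signal (horizontal axis) of the 11 SOCS family probe sets (rows, with the gene and probe set number) with bezafibrate (circles) and in DMSO control (squares), 1 array each, with the background limit of each array as a dotted line. The probe sets of Cish lie on opposite sides, at 9.73 with bezafibrate and 9.48 in control for the brighter and at 8.29 with bezafibrate and 8.63 in control for the dimmer, and Socs5 lies left of both limits.

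The promoters of Cish, Socs1 and Socs3 are shown because each matches 1 of 2 motifs, which were chosen after these sequences were seen. RefSeq windows of 250 bases before to 50 after the annotated start (assembly GRCm38.p6) were at hand for 4 members, Cish, Socs1, Socs3 and Socs4. The STAT-type motif TTCNNNGAA, which reads the same on both strands, and the interferon regulatory factor motif GAAANNGAA were searched on both strands. TTCNNNGAA occurred in 8.30% of 32851 windows and at least 2 times in 0.457%. GAAANNGAA occurred in 8.56% and at least 2 times in 0.624%. Since the motifs were chosen after the sequences were seen, these shares do not test the matches. Capitals mark these matches, and the Cish stretch runs 20 bases past its annotated start to the end of the second match.
Cish promoter, chr9:107296409-107296678, plus strand: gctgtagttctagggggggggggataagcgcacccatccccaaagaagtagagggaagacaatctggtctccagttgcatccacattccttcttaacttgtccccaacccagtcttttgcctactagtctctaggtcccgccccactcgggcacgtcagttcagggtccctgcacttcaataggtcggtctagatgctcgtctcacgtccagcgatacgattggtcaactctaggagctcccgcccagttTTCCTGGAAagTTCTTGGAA
Socs1 promoter, chr16:10785537-10785786, minus strand: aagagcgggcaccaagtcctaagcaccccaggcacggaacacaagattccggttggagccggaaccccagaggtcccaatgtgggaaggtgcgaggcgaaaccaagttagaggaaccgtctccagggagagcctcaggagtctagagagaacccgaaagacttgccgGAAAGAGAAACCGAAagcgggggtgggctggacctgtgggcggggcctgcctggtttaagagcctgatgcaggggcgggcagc
Socs3 promoter, chr11:117969367-117969616, minus strand: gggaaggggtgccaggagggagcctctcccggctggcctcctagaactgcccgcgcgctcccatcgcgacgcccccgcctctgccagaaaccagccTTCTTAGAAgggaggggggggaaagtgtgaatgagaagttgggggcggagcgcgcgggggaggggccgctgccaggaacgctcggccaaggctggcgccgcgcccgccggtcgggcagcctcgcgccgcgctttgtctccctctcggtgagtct
The Cish window held 2 STAT-type matches, TTCCTGGAA beginning at the start base itself and TTCTTGGAA beginning at base 12 from it. Socs3 held 1, TTCTTAGAA, 154 bases before its start. Socs1 held none of these and 2 matches of GAAANNGAA, which overlap by 3 bases and begin 83 and 77 bases before its start. Socs4 held neither motif. A match describes letters and is not a measured binding site, and no match says only that these letters are absent from the window.

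Cish, a classical STAT5 target whose product docks on phosphorylated cytokine receptors, gave opposite readings on its probe sets. Probe set 17521300 read 9.73 with bezafibrate and 9.48 in control, a log2 ratio of 0.25 (1.19-fold higher), and 22.4% of genes above the floor had a ratio at least as far from 0. Probe set 17530881 read 8.29 with bezafibrate and 8.63 in control, a log2 ratio of −0.34 (1.27-fold lower), and 5.3% of genes above the floor had a ratio as low or lower. Both probe sets were well clear of background, by 3.61 log2 units or more, so the array gave no single direction for Cish, and the mean of both ratios was −0.05. The ratios differed by 0.59. Among 386 genes with exactly 2 probe sets above the floor, the median such difference was 0.21, and 21 genes (5.4%) differed by at least as much as Cish. Only 52.1% of these 386 genes had ratios of the same sign on both probe sets, so opposite signs were common. The files give no probe positions, but the numbers of probe sets run along the genome, as the genes of neighbouring numbers show. All of the 10 nearest numbered neighbours of each Cish probe set named genes of chromosome 9. Around the first, the 9 neighbours with a strand in the RefSeq table lay on the plus strand, as Cish does, and around the second all 5 lay on the minus strand. Whether the second probe set reads the Cish transcript was not tested.

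Socs2, which restrains growth hormone receptor signalling and is also induced through STAT5, read slightly lower with bezafibrate on both probe sets. Probe set 17274184 read 8.59 with bezafibrate and 8.76 in control, and probe set 17244486 read 6.02 with bezafibrate and 6.19 in control. The log2 ratio was −0.17 on each, and 41.6% and 40.4% of genes above the floor were at least as far from 0, so the agreement of the probe sets concerned a small difference. Ratios of the same sign were held by 52.1% of genes with exactly 2 probe sets above the floor. Numbered neighbours of the dimmer probe set were all on chromosome 10, where Socs2 lies, whereas 9 of the 10 neighbours of the brighter one were on chromosome 12 and 0 on chromosome 10. The gene that the brighter set reads was taken as annotated.

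Socs1 and Socs3 encode the members whose kinase inhibitory region blocks Janus kinases directly. Socs1 (probe set 17328104) read 7.70 with bezafibrate and 8.00 in control, a log2 ratio of −0.30 (1.23-fold lower). Socs3 (probe set 17272619), which acts mainly at receptors that share the gp130 chain, read 6.06 with bezafibrate and 6.36 in control, also −0.30 (1.23-fold lower). Ratios at least as far from 0 were held by 15.4% and 15.2% of genes above the floor, so differences of this size were common on these arrays. A second Socs3 probe set (17547600) was within background on both arrays, at 3.77 with bezafibrate and 3.88 in control. Socs1 and Socs3 are compact genes, 1729 bp for Socs1 and 4258 bp for Socs3 in the RefSeq table, and short genes read lower with bezafibrate in general. The median log2 ratio of genes of like level and length was −0.16 for Socs1, −0.08 for Socs3 and −0.12 for Cish (6126 bp). With that median subtracted the ratio was −0.13 for Socs1 and −0.22 for Socs3, so that neither was 1.2-fold lower, and it was 0.37 for Cish on its brighter probe set, which was then over 1.2-fold higher.

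Socs4 and Socs5 are a closely related pair best known for acting on the epidermal growth factor receptor. Socs4 (probe set 17299316) read 6.65 with bezafibrate and 6.43 in control, a log2 ratio of 0.22 (1.17-fold higher), and 26.9% of genes above the floor were at least as far from 0. Socs5 (probe set 17340239) read 4.41 on both arrays and was within background. Its deposited values were exactly equal, as on 5.63% of probe sets with values, so they carry no direction.

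Socs6 and Socs7, the other related pair, bind insulin receptor substrates and other adaptor proteins. Socs6 (probe set 17355873) read 5.22 with bezafibrate and 5.39 in control, a log2 ratio of −0.17, within 0.69 log2 units of the background limit on both arrays. Socs7 (probe set 17255775) read 5.88 with bezafibrate and 6.00 in control, a log2 ratio of −0.12. At least 40.0% of genes above the floor had ratios as far from 0 as either.

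**Figure D2:**
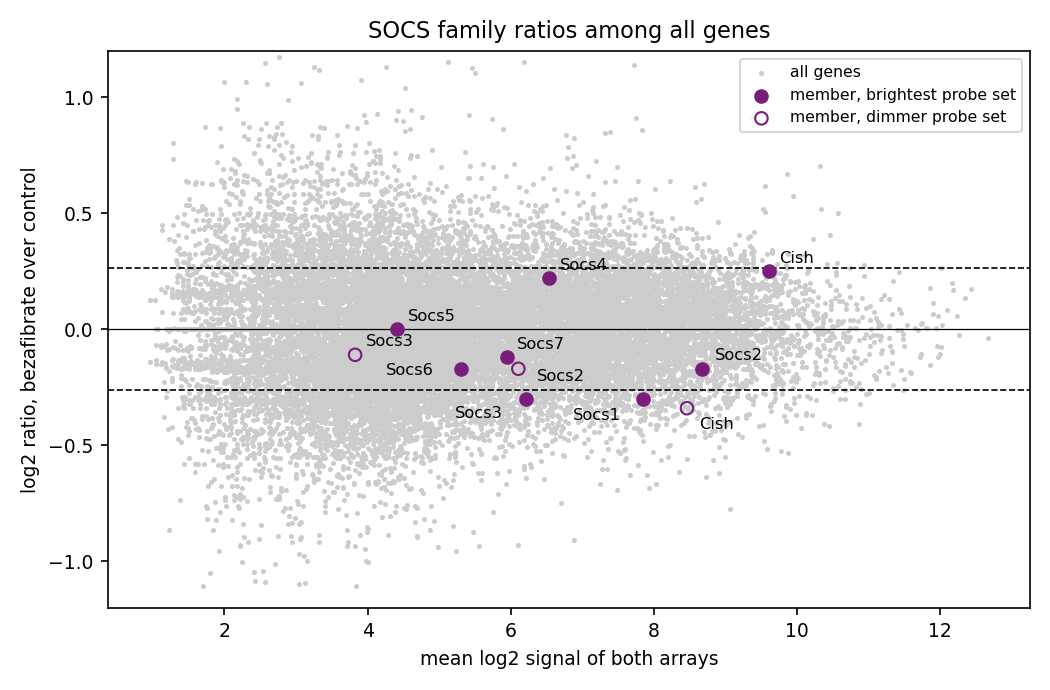
Log2 ratio of bezafibrate over control (vertical axis) against the mean log2 signal of both arrays (horizontal axis) for all genes (grey) and the SOCS family (filled circles for the brightest probe set of a gene, open circles for a dimmer one), with dashed lines at 1.2-fold; 12 genes lie outside the vertical axis. The members lie inside the cloud of all genes, with Socs1 and Socs3 at −0.30 just past the lower line and Cish on both sides of 0.

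On the brightest probe set of each gene, the order of the ratios from lowest to highest was Socs3 and Socs1, then Socs6 and Socs2, then Socs7, Socs5, Socs4 and Cish. The dimmer probe set of Cish, at −0.34, lay below all of these, so the place of Cish depends on the probe set. The widest gap in this order, between Socs5 and Socs4, was 0.22 log2 units, close to the robust SD of 0.21 over all genes above the floor, so with 1 array each no neighbours in it can be ranked. By the distance between both log2 levels over the 2 arrays, the genes nearest to Cish on its brighter probe set were Dhx15, Nucks1 and Ogdh. Their distances ran from 0.046 to 0.057, with 13 genes within 0.1. The genes nearest to Socs3, the member of lowest ratio on the brightest probe sets, were Acta2, Fam114a2 and Fgfbp3. Their distances ran from 0.008 to 0.040, with 41 genes within 0.1. With 2 arrays such likeness only means similar levels.

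The receptor, kinases and STATs upstream of the family read nearly alike on both arrays. Il2ra and Il2rb, the α and β chains of the interleukin-2 receptor, read 10.69 and 10.99 with bezafibrate, against 10.57 and 11.06 in control. Of 6 common γ chain family receptor chains above the floor, 3 were higher and 3 lower, the median log2 ratio was −0.02, and only Il21r, the interleukin-21 receptor, passed 1.2-fold (9.03 with bezafibrate and 9.30 in control, 1.21-fold lower). Il2rg had no probe set of its own here. Jak1 had a log2 ratio of 0.09, Jak2 0.07 and Tyk2 0.01, and the single probe set for Jak3 names Insl3 as well, at −0.02. The 2 STAT5 genes had log2 ratios of 0.00 (Stat5a) and 0.06 (Stat5b), and the 6 measured STAT genes had a median of 0.04, none of them 1.2-fold different, against 20.0% of all genes above the floor. Of 12 other cytokine receptor chains above the floor, such as the interferon, interleukin-12 and gp130 chains that SOCS1 and SOCS3 restrain, 9 were higher, 2 lower and 1 equal, with a median of 0.05. None passed 1.2-fold, and the highest and lowest ratios were 0.23 for Il12rb1 and −0.13 for Il10rb.

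Genes that STAT5 induces alongside Cish did not share a direction. Of 17 above the floor, 10 were higher and 7 lower with bezafibrate, against 48.4% higher and 49.6% lower among all genes above the floor, and the median log2 ratio was 0.03. Tnfrsf4, the costimulatory receptor OX40, read 6.18 with bezafibrate and 5.90 in control (1.22-fold higher). On the brightest probe set of each gene it was the only one past 1.2-fold, against 20.0% of all genes above the floor. Mcl1 had a log2 ratio of −0.01 on its brightest probe set and −0.40, past 1.2-fold lower, on its second. Bcl2 had 0.13 on the brightest and −0.18 on the second, and Pim1 had 0.03 and 0.09. Ccnd2, a G1 cyclin, had a log2 ratio of 0.21, and Gadd45g, a stress-induced cell cycle regulator, and Osm, the cytokine oncostatin M, had −0.19 and −0.15. Pim1, a survival kinase that STAT5 induces, read 9.11 with bezafibrate and 9.09 in control.

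**Figure D3:**
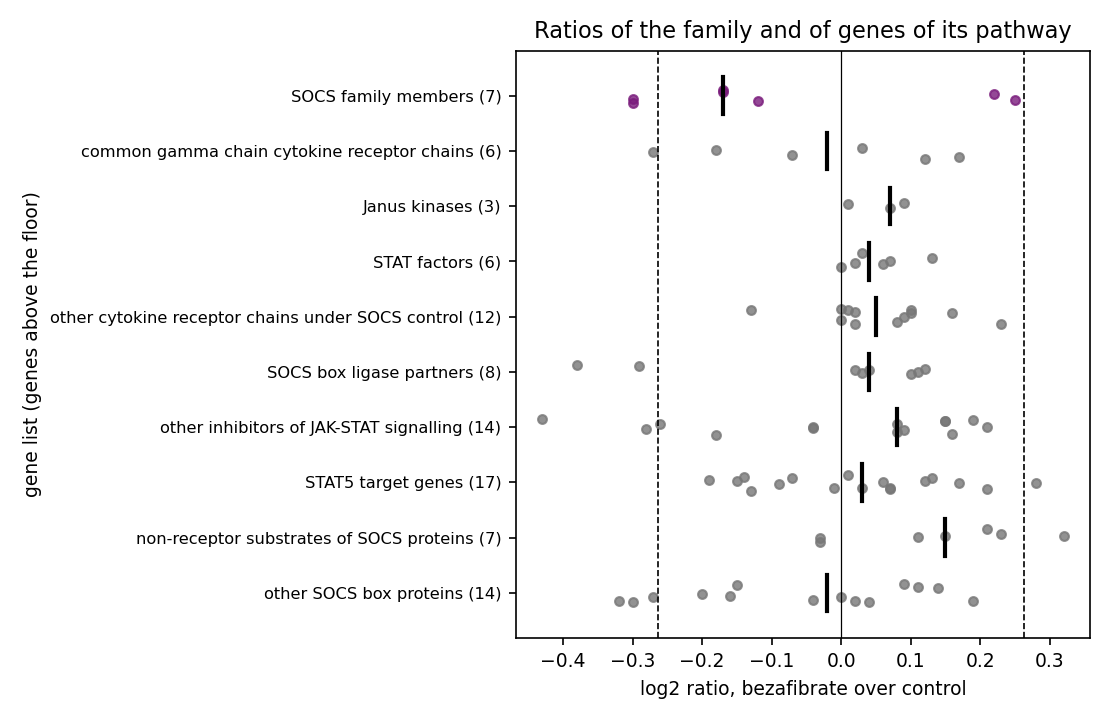
Log2 ratio of bezafibrate over control (horizontal axis) of each gene above the floor in the SOCS family and in 9 lists of its pathway (rows, with the number of genes), with the median of each list as a bar and dashed lines at 1.2-fold. The family's median lies at −0.17, that of the STAT5 targets at 0.03, and vertical jitter within a row has no meaning. The row of non-receptor substrates includes Kit, a receptor tyrosine kinase gene.

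The ubiquitin ligase that the SOCS box recruits was read through 8 genes, all above the floor, of which 6 were higher and 2 lower, and the median log2 ratio was 0.04. The 2 lower ones passed 1.2-fold, against 10.4% of all genes above the floor. Nedd8, the ubiquitin-like protein that activates cullins, read 8.40 with bezafibrate and 8.79 in control (1.30-fold lower). Elob, elongin B, read 10.03 with bezafibrate and 10.32 in control (1.23-fold lower), with a log2 ratio of −0.29 on its second probe set as well. Cul5, the cullin that SOCS proteins bind, had a log2 ratio of 0.12 and Rnf7, its RING partner, 0.11. Other inhibitors of the pathway had a median of 0.08 over 14 genes, 8 higher and 6 lower. Pdlim2, a nuclear protein that promotes STAT degradation, read 8.06 with bezafibrate and 8.49 in control (1.35-fold lower), and Usp18, which dampens type I interferon signalling, read 6.98 with bezafibrate and 7.25 in control (1.21-fold lower). These were the 2 of the 14 at least 1.2-fold lower, against 10.4% of all genes above the floor. The phosphatase gene Ptprc (CD45) had a log2 ratio of 0.21, the ubiquitin ligase gene Cbl 0.19, and Ptpn2, a phosphatase of JAK1 and JAK3, −0.04. Other substrates of SOCS proteins, outside the cytokine receptor lists, had a median of 0.15 over 7 genes, 5 higher and 2 lower. The 2 lower were Kit, a receptor tyrosine kinase gene, and Rela, each at a log2 ratio of −0.03. Nck1, one of the higher ones, had 0.23. Irs2, an insulin receptor substrate, read 5.06 with bezafibrate and 4.74 in control (1.25-fold higher), so it was above the floor with bezafibrate only and close to the background limit in control. A probe set that it shares with another gene was within background on both arrays, at 3.32 with bezafibrate and 3.59 in control. Plcg1, which encodes the phospholipase that CIS targets in CD8+ T cells, read 8.56 with bezafibrate and 8.41 in control.

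**Figure D4:**
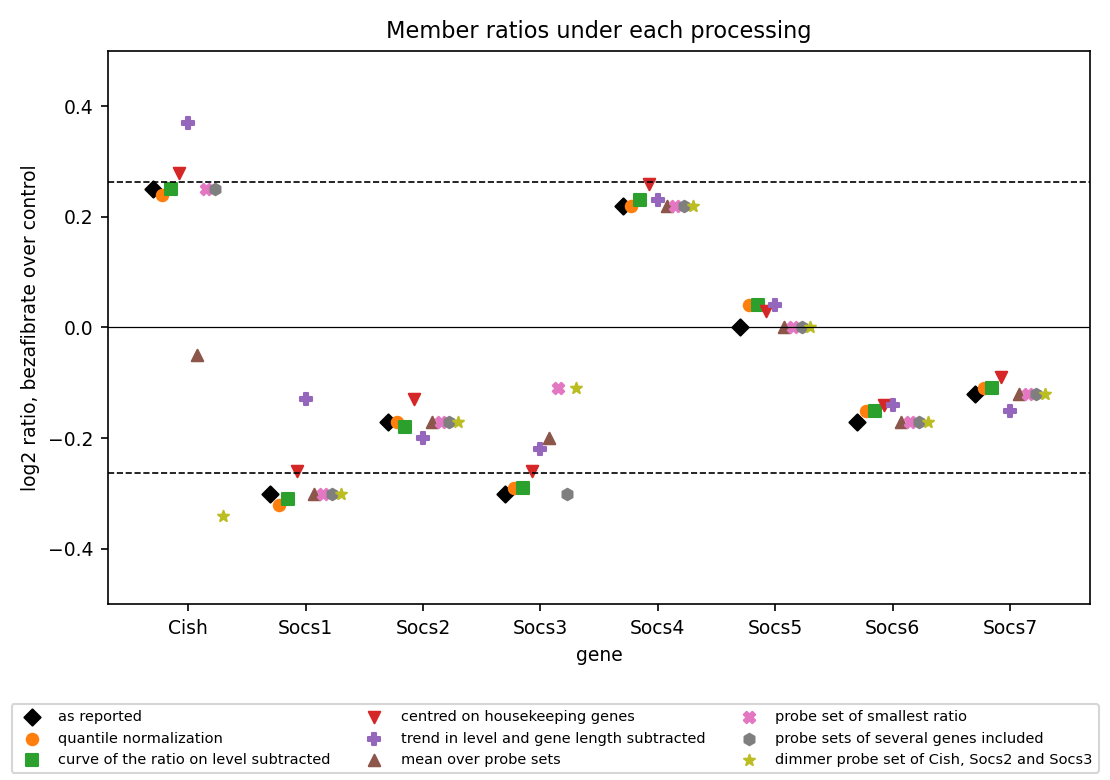
Log2 ratio of bezafibrate over control (vertical axis) of each member (horizontal axis) as reported and under 8 other ways of processing, with dashed lines at 1.2-fold. Cish runs from −0.34 to 0.37, whereas the other members keep their side of 0, apart from Socs5, which lies between 0 and 0.04; 4 of the 8 ways concern the choice of probe set and leave members with 1 probe set as they are.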

How the data were processed

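Total RNA was amplified with a whole-transcript kit, biotin-labelled and hybridised to Affymetrix arrays, per the labels' protocols. The deposited values are log2 signals per probe set, and the submitters' processing notes name RMA and Affymetrix Expression Console as the authors' tools. The log2 scale was read from the values (0.79 to 12.64 with bezafibrate, 0.75 to 12.68 in control). RMA equalises arrays processed together, so every ratio is relative to other genes, and it can shrink real differences at low signal. Ratios at low signal were still not narrower here, with a robust SD of 0.30 over the olfactory and vomeronasal receptor genes. The robust SD was 0.21 over all genes above the floor. Genome build and tool versions: not given in the sources used here.

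Of 33793 probe sets with values, 23521 named 1 gene in the platform annotation, 1814 several and 8458 none. The brightest probe set stood for a gene. Fold limits were 1.2 and 1.5. With 1 array per group no test was run, and the number of arrays limits the precision. Gene lengths came from RefSeq (GRCm38.p6), for 99.8% of genes. Members and lists were chosen with earlier results of these data known. Named were all members, 10 fixed pathway genes, up to 2 genes at each end of every list (1 further list fixed with the others is not reported here), and the 3 genes nearest in level to the highest and lowest member. Genes named outside this rule (Spsb3, Plcg1, Mcl1, Bcl2 and the markers) were chosen after their values were seen, and the promoter motifs after the sequences were seen. Alternatives were quantile normalization, a lowess curve, housekeeping centring, a trend in level and length, other probe set rules and other floors. Python 3.11.15, numpy 2.4.6, pandas 2.3.3, statsmodels 0.14.6 and matplotlib 3.10.9 were used, and the counting was tested on simulated data.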

Additional observations from a re-analysis of the deposited data

How the results depend on the processing

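Among the members, Socs1, Socs2, Socs3, Socs6 and Socs7 stayed below 0 and Socs4 above 0 under all 8 alternatives tried, whereas Cish went to −0.05 as the mean over probe sets and to −0.34 on its dimmer probe set, an alternative chosen after seeing the data. For Socs1, Socs4, Socs6 and Socs7, which have 1 probe set each, 4 of these 8 alternatives concern the choice of probe set and could not change the ratio. The family's median ran from −0.17 to −0.13. The count of members at least 1.2-fold lower, 2 as reported, was 1 with centring on housekeeping genes, as the mean over probe sets, with the probe set of smallest ratio and with a stricter floor at the 75th percentile, and 0 after subtracting the trend in level and length or at a limit of 1.5-fold. The count at least 1.2-fold higher was 1 in place of 0 with housekeeping centring and with that trend subtracted. Members above 0 numbered 1 in place of 2 as the mean over probe sets, on the dimmer probe sets and with that stricter floor, where members below 0 numbered 2 in place of 5 because only 3 members remained above it. With the trend in level and length subtracted, list medians went to −0.03 for Janus kinases and −0.02 for other inhibitors of the pathway; all other list medians moved by less than 0.1. Of 91 list counts at 1.2-fold under alternatives, 74 stayed within 1.5 times. The cause of these changes was not tested. No paired analysis was possible because each group is 1 array. Socs5, and Socs6 in part, are limited by signal close to background.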

Other observations

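Other proteins that carry a SOCS box, in families defined by SPRY, WD40, ankyrin or GTPase domains, were detected in part. Of 26 measured genes, 12 were within background on both arrays and 14 were above the floor, 6 of them higher, 7 lower and 1 equal with bezafibrate, with a median log2 ratio of −0.02. Spsb1, a SPRY domain member that targets inducible nitric oxide synthase, read 5.99 with bezafibrate and 6.32 in control (1.25-fold lower), with a log2 ratio of −0.34 on its second probe set. Wsb2, a WD40 repeat member, read 6.97 with bezafibrate and 7.27 in control (1.23-fold lower), and Spsb3 read 6.20 with bezafibrate and 6.47 in control (1.21-fold lower). Rab40c, a GTPase with a SOCS box, had a log2 ratio of 0.19 and Wsb1 0.14. The 3 genes past 1.2-fold lower stand against 10.4% of all genes above the floor.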
